A study of Mus musculus with 8 samples.

Results

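Interleukin receptors are the cell surface chains through which leukocytes and glia sense interleukins, and their genes were read here in 2 populations of phagocytes from the injured mouse retina. The 41 genes were chosen by name alone, from the deposited gene table: every symbol that starts with Il, a number and r was taken, except Il1rn, which encodes the IL-1 receptor antagonist and is a ligand rather than a receptor. They are 41 of 22558 gene symbols in the table. All 41 entered the description, 15 passed the filter on low values that a test needs, and 26 did not.

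The study set resident microglia against macrophages that had entered the retina after injury, with 4 libraries of each, all from day 7 post-injury. The microglia libraries are numbered 1 to 4 and the infiltrating macrophage libraries 5 to 8, and values below are always given in that order. All 8 libraries came from mice of about 5 months, of a mixed C57BL/6; 129 background, with the genotype Msi1-CreERT2/+; R26R-DTA/+. The Msi1 locus drives a tamoxifen-inducible Cre recombinase in this genotype, and Cre switches on diphtheria toxin A from the Rosa26 locus, which kills the cells that express it. Microglia and macrophages thus share the same allele pair, the same injury and the same day, and no uninjured library is among the 8. The titles mark the macrophages as GFP and the microglia as cont. The sources used here do not give what GFP marked, how the cells were sorted or whether each library came from its own animals. The p-values therefore measure only how these libraries spread, and part of that spread may be technical.

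As background, most interleukin receptors are built from a private chain that binds the ligand and a shared chain that signals. The common gamma chain serves IL-2, IL-4, IL-7, IL-9, IL-15 and IL-21, the IL-10 receptor beta chain serves IL-10, IL-22 and the lambda interferons, and both kinds signal through Janus kinases (JAK) and STAT transcription factors. Receptors of the IL-1 family pair with the accessory protein Il1rap or a relative and signal through Myd88 and NF-kB, and decoy receptors such as Il1r2 bind the ligand without signalling. Microglia and monocyte-derived macrophages are both known to express the IL-10 and IL-4 receptors.

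Promoters of 3 of these genes are shown because they stand at the ends of the range described below. Il2ra was the receptor gene called higher in macrophages, Il1r2 was listed at 0 in every microglia library, and Il2rg was abundant in both populations. The sequences are RefSeq promoters of GRCm38.p6, from 250 bases before to 50 bases after the start site, written 5′ to 3′ on the gene's strand. Capitals mark a match to the NF-kB form in Il2ra (GGGAA and CC with 3 bases of any kind between them), which begins at position -201 from the start site, and to the STAT form TTCNNNGAA in Il1r2, which begins at -111. The Il2ra window is chr2:11642542-11642841 on the plus strand, that of Il1r2 is chr1:40085843-40086142 on the plus strand, and that of Il2rg is chrX:101268206-101268505 on the minus strand.
Il2ra: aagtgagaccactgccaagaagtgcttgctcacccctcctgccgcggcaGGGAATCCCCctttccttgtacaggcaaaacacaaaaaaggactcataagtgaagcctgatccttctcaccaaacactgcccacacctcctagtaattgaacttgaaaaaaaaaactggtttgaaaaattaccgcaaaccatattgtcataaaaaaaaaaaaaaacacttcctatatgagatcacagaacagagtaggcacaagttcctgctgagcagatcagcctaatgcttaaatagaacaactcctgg
Il1r2: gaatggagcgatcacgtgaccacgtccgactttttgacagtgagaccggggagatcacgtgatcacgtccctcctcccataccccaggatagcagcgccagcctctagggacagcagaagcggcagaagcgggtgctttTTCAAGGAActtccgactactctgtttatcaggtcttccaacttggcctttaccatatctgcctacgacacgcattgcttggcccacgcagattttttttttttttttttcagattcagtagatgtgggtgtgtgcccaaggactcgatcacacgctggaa
Il2rg: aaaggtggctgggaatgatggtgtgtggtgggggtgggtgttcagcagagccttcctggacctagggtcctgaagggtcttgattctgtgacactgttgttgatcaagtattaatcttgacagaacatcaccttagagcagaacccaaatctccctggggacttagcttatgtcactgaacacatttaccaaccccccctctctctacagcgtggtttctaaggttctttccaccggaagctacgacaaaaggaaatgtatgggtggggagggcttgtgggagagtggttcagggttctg

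The Il2rg window held none of the 3 motifs searched, which were these forms and the PU.1 form GAGGAAGT, each read on both strands. Of all 32851 promoters of that length, 5.78% held the NF-kB form, 8.3% the STAT form and 3.2% the PU.1 form. Promoter entries were found for 33 members by their own symbol and for Il28ra through its current symbol, Ifnlr1, which gave 40 promoters because some genes have several. Among these 40, 4 held the NF-kB form (in Il12rb2, Il13ra1, Il17rc and Il2ra), 5 the STAT form (in Il12rb2, Il18r1, Il1r2, Il31ra and Il7r) and 1 the PU.1 form (in Il18rap). A match is a stretch of letters and was not tested as a binding site. Il10ra, Il10rb, Il12rb1, Il17ra, Il22ra2, Il27ra and Il2rb had no entry.

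The libraries were first checked against their labels. The summed level of 10 resident microglia genes (among them Tmem119, P2ry12 and Sall1) was 2596 to 3965 FPKM in the microglia libraries and 673 to 2323 FPKM in the macrophage libraries, so microglial transcripts were lower but not absent in the macrophage libraries. The summed level of 10 monocyte-derived macrophage genes was 102 to 151 FPKM in microglia and 288 to 1703 FPKM in macrophages. The unit is FPKM, fragments counted per length of transcript and per depth of the library. Its sum per library ran from 207077 in macrophage 7 to 512049 in macrophage 6. From the spacing of the lowest values, depth was estimated at about 11600000 fragments for microglia 1 and at 19000000 to 24500000 fragments for the others. Microglia 1 to 3 carried Y-linked transcripts (summed level of 11.7 to 25.8 FPKM) and microglia 4 and the macrophages little or none (0.0107 to 1.97 FPKM), so sex and population are partly the same split. Red cell transcripts summed to 160 to 2437 FPKM in microglia 1 to 3 and to 0.683 to 23.7 FPKM in the other libraries. In bulk libraries, fewer cells of a type and less RNA per cell cannot be told apart.

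Read over all 41 genes, a few receptors held most of the summed level in both populations and most of the family was at or near 0. The receptor genes together made up 0.0519% to 0.0768% of all FPKM in the microglia libraries and 0.0793% to 0.169% in the macrophage libraries, so the groups did not overlap in this share. Their summed level itself overlapped, at 181, 188, 213 and 227 FPKM from the lowest to the highest microglia library and 164, 280, 410 and 464 FPKM among the macrophages. Macrophage 7 held the lowest of these 8 sums and macrophage 6 the highest. Each microglia library had 12 to 15 receptor genes at 1 FPKM or more, and each macrophage library 12 to 21. The 6 genes with the highest mean, Il10rb, Il2rg, Il10ra, Il4ra, Il21r and Il13ra1, held 65.3% to 86.6% of the receptor FPKM in microglia and 78.6% to 84.9% in macrophages.

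**Figure D1:**
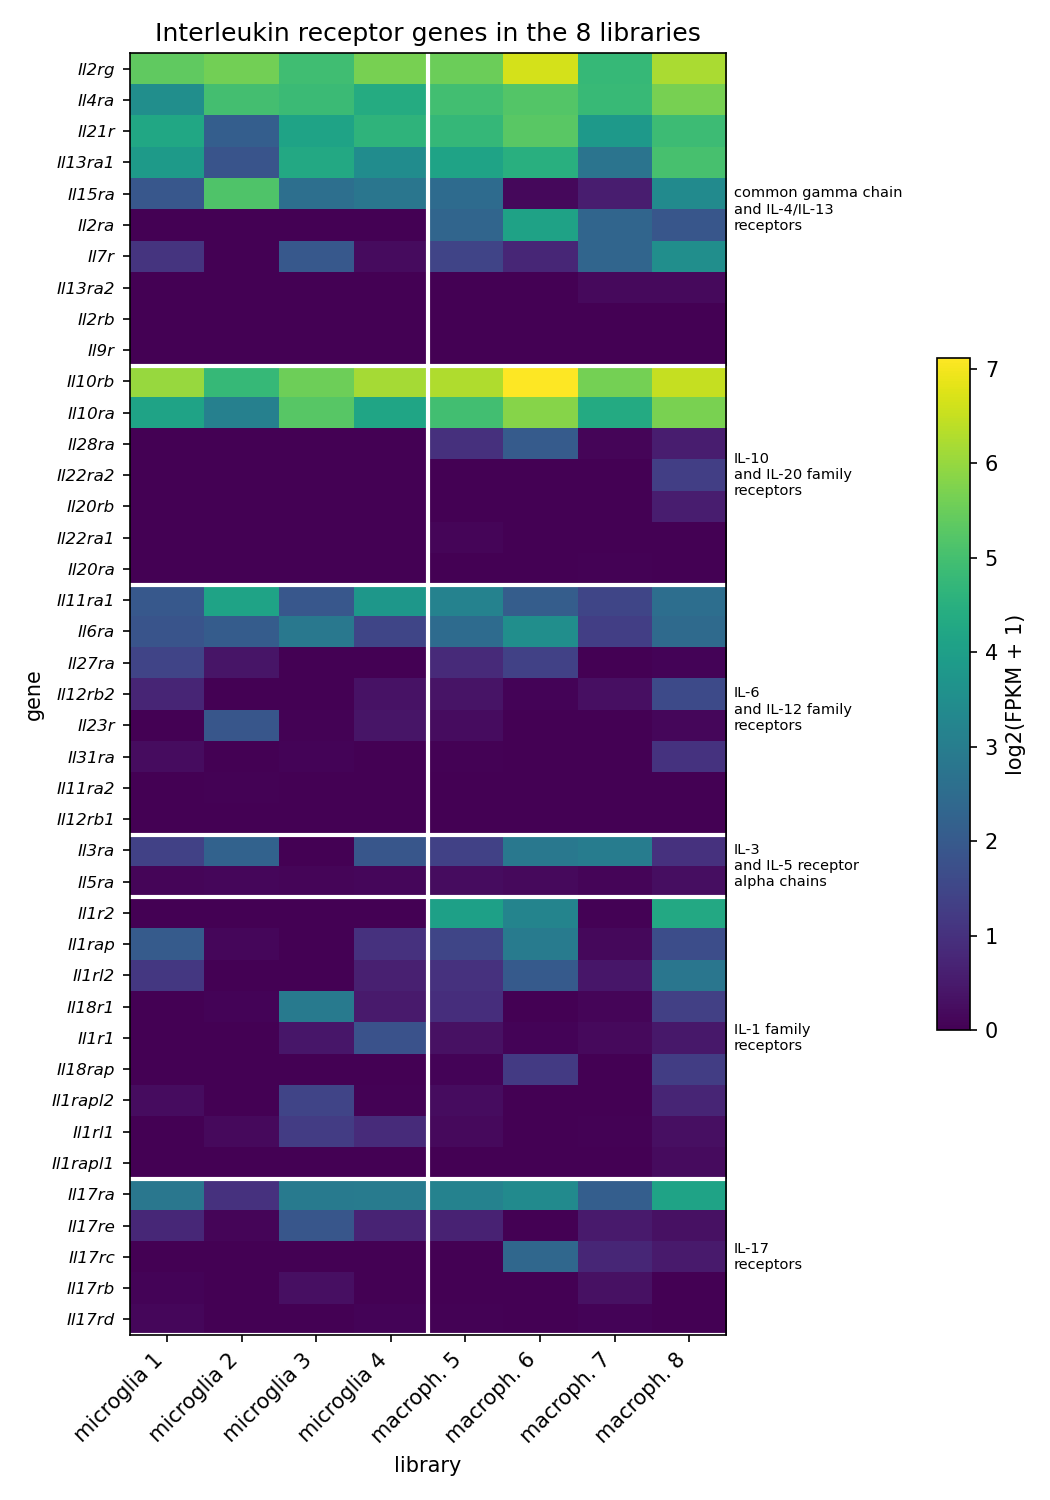
Level of all 41 interleukin receptor genes (rows, by receptor class) in the 8 libraries (columns), as log2(FPKM + 1) on the colour scale, with a white line between microglia and infiltrating macrophages. Il2rg and Il10rb are bright in every column, while Il2ra and Il1r2 are dark in the 4 microglia columns, and Il1r2 is dark in macrophage 7 too.

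The test compared macrophages with microglia by limma on log2(FPKM + 1), over the 9352 genes that reached 1 FPKM in 4 or more libraries, and called a gene at a Benjamini-Hochberg adjusted p below 0.05. Of the 15 receptor genes tested, 1 rose in macrophages (Il2ra) and 0 fell. Il2ra entered the test only through the macrophage libraries, in which it was high, and with no filter on low values its limma adjusted p was 0.194. Over all tested genes, 2.34% were called, 1.65% higher and 0.695% lower in macrophages, so 1 of 15 rests on a single gene. At an unadjusted limma p below 0.05 stood 2 of the 15 (Il2ra and Il1rl2), where the share over all tested genes was 15.0%. The difference was above 0 for 13 of the 15 receptor genes, against 67.1% of all tested genes, and for 11 of them under quantile normalization and 12 with a term for Y-linked expression. Its median was 0.75 on the log2 scale over the 15 and 0.37 over all tested genes. That shift of all genes moved with the scaling of the libraries, to 0.48, 0.28, 0.12 and -0.03 under equal FPKM sums, upper-quartile, median-of-ratios and quantile scaling, and the median of the 15 was then 0.89, 0.63, 0.45 and 0.48. These 15 are the members that passed the filter, not the family.

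Il2ra encodes the alpha chain of the IL-2 receptor, CD25, which raises the affinity for IL-2 and is known from regulatory and activated T cells and from some activated myeloid cells. The gene lies at chr2:11564419-11614821 (mm9, plus strand). Il2ra measured 0.00835, 0.00527, 0.00585 and 0.00830 FPKM in the microglia and 3.98, 16.2, 4.004 and 2.73 FPKM in the macrophages. The groups did not overlap, and macrophage 6 stood above the other macrophages. Among all tested genes, 5.69% had every macrophage library above every microglia library and 1.95% had the reverse. In fragments, the Il2ra levels correspond to an estimated 0.4 to 0.7 in each microglia library and to about 417, 1505, 397 and 260 in the macrophages, and the filter was met by the macrophage libraries alone. The limma difference was 2.65 ± 0.58 (SE, 95% interval 1.46 to 3.84, n = 4 against 4) on the log2(FPKM + 1) scale, with an adjusted p of 0.0108. Its size depends on the pseudocount, with 5.62 at a pseudocount of 0.1. The call held without any single library and without microglia 2 and 3 together. These runs kept the genes that passed the filter over the 8 libraries. Applied afresh without any one macrophage library, the filter would have left Il2ra out. It was lost with no filter, as given above, under quantile normalization (difference 1.82, limma adjusted p = 0.0718) and with a term for Y-linked expression (difference 2.63, limma adjusted p = 0.392). The exact two-sided permutation test over the 8 libraries gave p = 0.0286, the smallest that 4 against 4 can give. A gene that meets the filter through the 4 macrophage libraries alone is fully separated, so this p was fixed by how Il2ra entered and is no separate support. Microglia 4, whose Y-linked level was as low as in the macrophages, had 0.00830 FPKM of Il2ra. It is a single library, so the parts of sex and population in the Il2ra level cannot be told apart.

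Markers of other leukocytes were read beside Il2ra, since T cells, innate lymphoid cells and dendritic cells can also express it. The 20 T cell, NK cell and innate lymphoid cell genes summed to 1.84 to 7.48 FPKM in microglia. In macrophages 5 to 8 they summed to 7.00, 6.13, 6.14 and 23.9 FPKM. This sum was lowest in macrophage 6, where Il2ra was highest, and highest in macrophage 8, where Il2ra was lowest of the macrophages. Among the macrophages, 16 of the 20 genes were lowest or tied for lowest in macrophage 6, and 3 were highest there. In microglia and macrophages, 5 and 7 of the 20 reached 1 FPKM in any library. Of the 4 listed chains of the T cell receptor complex, Cd3g was listed at 0 in the microglia and at 0.380, 1.59, 0.153 and 0 FPKM in the macrophages, so it was highest in macrophage 6, as Il2ra was. Cd3d reached 0.0473 FPKM in microglia and measured 0.172, 0.0111, 0.766 and 0.0347 FPKM in the macrophages. Cd3e was listed at 0 in the microglia and at 0.284, 0, 0.0339 and 0 FPKM in the macrophages, and Cd247 reached 0.162 FPKM in microglia 4 and 0.101 FPKM in macrophage 5. The chains thus differed in which macrophage library held most of them. The 9 dendritic cell genes summed to 1.51 to 11.6 FPKM in microglia and to 42.3, 80.7, 6.08 and 160 FPKM in macrophages 5 to 8. The 10 neutrophil genes, of which Ngp was listed at 0 in every library, summed to 0.667 to 1.46 FPKM and to 42.8 to 242 FPKM. Most of the macrophage sums came from S100a8, S100a9 and Retnlg. Among genes of mast cells, basophils and eosinophils, Tpsb2, Cma1, Prg2 and Epx were listed at 0 in all 8 libraries. The part of T cells, innate lymphoid cells, dendritic cells and neutrophils in the Il2ra level was not tested.

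The chains that complete the IL-2 receptor were read beside Il2ra. Il2rg, the common gamma chain at chrX:98459726-98463545 (mm9, minus strand), measured 40.5, 47.3, 29.6 and 49.7 FPKM in the microglia and 45.1, 100.1, 26.4 and 72.6 FPKM in the macrophages. Macrophage 7 was below every microglia library and macrophages 6 and 8 were above them all, so the groups overlapped. The difference of 0.40 ± 0.53 did not pass (limma adjusted p = 0.778, 95% interval -0.70 to 1.49). Il2rb, the beta chain that IL-2 and IL-15 need for signalling, was listed at 0 in all 8 libraries.

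Il15ra, which binds IL-15 and presents it to neighbouring cells, lies 12.3 kb from Il2ra on chromosome 2. Il15ra measured 2.79, 34.9, 5.07 and 5.94 FPKM in the microglia and 4.62, 0.108, 0.496 and 9.62 FPKM in the macrophages. Microglia 2 was far above the other libraries and macrophage 6, the highest library for Il2ra, was the lowest. The Il15ra difference of -1.46 ± 0.84 was the lowest of the 15 and did not pass (limma adjusted p = 0.427). Il7r, the alpha chain for IL-7 and TSLP, measured 1.10, 0.00880, 2.92 and 0.153 FPKM in the microglia and 1.73, 0.688, 3.99 and 10.4 FPKM in the macrophages. Macrophage 8 held the highest Il7r level and macrophage 6 lay below 2 microglia libraries (difference 1.19 ± 0.65, limma adjusted p = 0.403). Il9r, the receptor of IL-9, was listed at 0 in all 8 libraries.

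Receptors of IL-4, IL-13 and IL-21 were expressed in both populations. Il4ra, the ligand-binding chain for IL-4 that also serves IL-13, measured 10.4, 30.8, 27.6 and 19.8 FPKM in the microglia and 30.2, 35.8, 26.9 and 49.8 FPKM in the macrophages. Macrophage 8 was the highest and microglia 1 the lowest, and the others lay between 19.8 and 35.8 FPKM (difference 0.73 ± 0.55, limma adjusted p = 0.567). Il21r, which lies 24.0 kb from Il4ra on chromosome 7 and binds IL-21, measured 17.8, 3.40, 16.6 and 23.5 FPKM in the microglia and 25.7, 37.9, 13.01 and 28.7 FPKM in the macrophages. Microglia 2 held little Il21r although its Il4ra was the highest of the microglia (Il21r difference 0.90 ± 0.63, limma adjusted p = 0.535). Il13ra1, the partner of Il4ra in the type II receptor, measured 13.6, 2.58, 18.7 and 9.98 FPKM in the microglia and 16.6, 21.7, 5.65 and 32.2 FPKM in the macrophages. Microglia 2 and macrophage 7 were the lowest of their groups for Il13ra1, as for Il21r (difference 0.74 ± 0.68, limma adjusted p = 0.657). Il13ra2, the IL-13 decoy receptor, was listed at 0 in 6 libraries and reached at most 0.129 FPKM.

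FPKM are per length, so chains of one receptor can be set against each other within a library. Il2rg was above Il4ra in 7 of the 8 libraries, by ratios of 1.07 to 3.88 in microglia and 0.981 to 2.80 in macrophages. Il4ra was above Il13ra1 in 7 of 8, with a ratio of 11.97 in microglia 2 and 0.768 in microglia 1. Il2rg was above Il21r in all 8 libraries, by 1.79 to 13.9 in microglia and 1.75 to 2.64 in macrophages. The ranges of the 2 populations overlapped for each of these ratios, and the order of the chains was mostly shared by both.

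**Figure D2:**
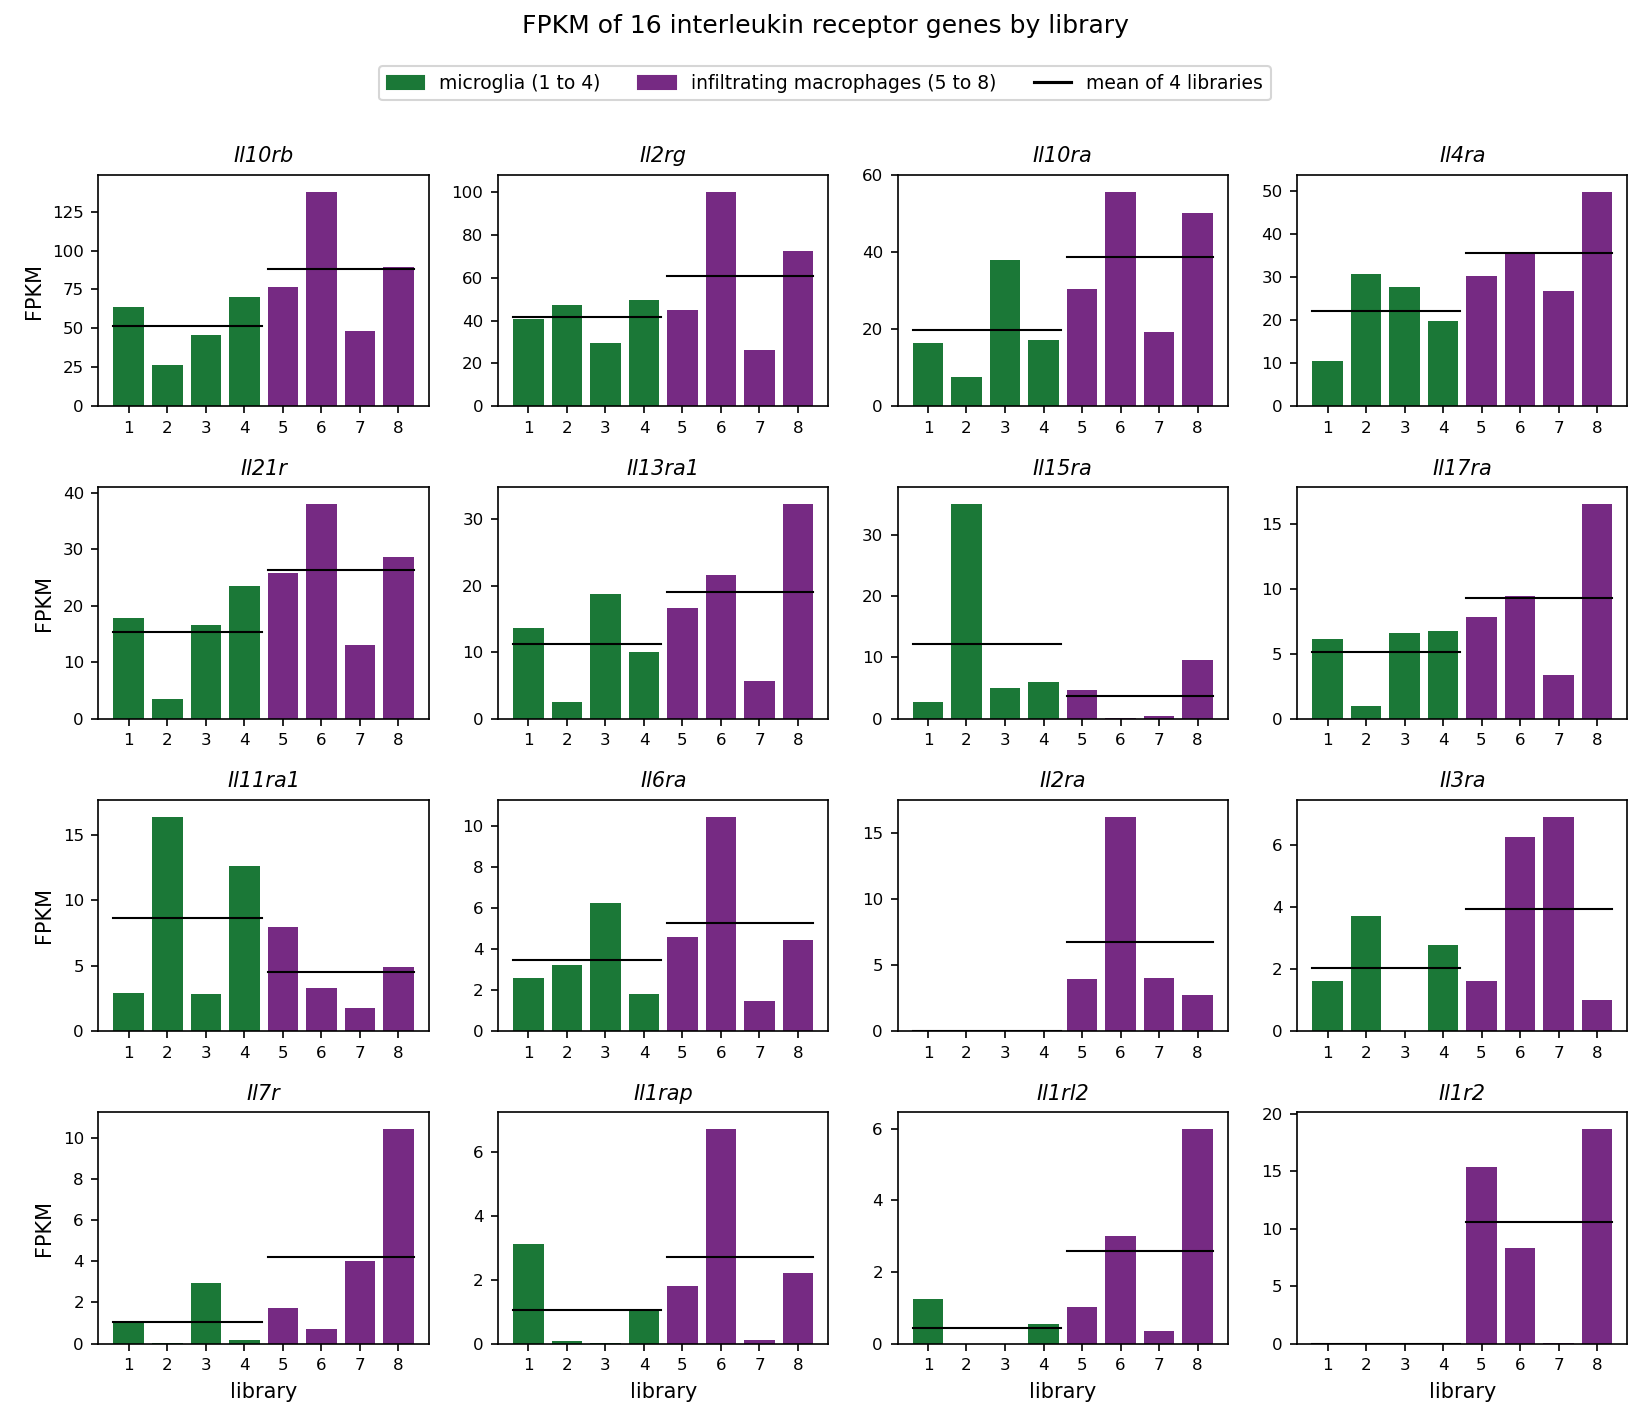
FPKM (vertical axis, linear, from 0, scaled per panel) of 16 interleukin receptor genes in microglia 1 to 4 (green) and infiltrating macrophages 5 to 8 (purple), with the mean of each group as a line. Il2ra and Il1r2 have no visible bar in microglia, Il15ra and Il11ra1 are highest in microglia 2, and the bars of both groups interleave in the panels of abundant chains such as Il2rg and Il10rb.

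The IL-10 receptor held the highest level of the family. Il10rb, the shared chain for IL-10, IL-22 and lambda interferons, measured 63.7, 26.3, 45.9 and 70.2 FPKM in the microglia and 76.7, 138, 48.2 and 89.2 FPKM in the macrophages. Macrophages 5, 6 and 8 were above every microglia library and macrophage 7 was not. The difference of 0.75 ± 0.52 did not pass (limma adjusted p = 0.520, 95% interval -0.31 to 1.82). Il10ra, the IL-10-binding chain, measured 16.5, 7.61, 37.9 and 17.3 FPKM in the microglia and 30.4, 55.6, 19.2 and 50.1 FPKM in the macrophages. Microglia 3 exceeded macrophages 5 and 7, so the groups overlapped here too (difference 1.03 ± 0.59, limma adjusted p = 0.428). Within each of the 8 libraries Il10rb was above Il10ra, by ratios of 1.21 to 4.06 in microglia and 1.78 to 2.52 in macrophages. Among all gene symbols of a library, Il10rb ranked at percentile 92.3 to 97.2 in microglia and 97.3 to 98.3 in macrophages.

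The remaining chains of the IL-10 and IL-20 family were at or near 0 in microglia. Il28ra, the private chain for lambda interferons, measured 0.00532, 0.00141, 0.00216 and 0.00450 FPKM in the microglia and 0.965, 3.12, 0.0696 and 0.481 FPKM in the macrophages. Every macrophage library was above every microglia library for Il28ra, although macrophage 7 held only an estimated 6.5 fragments of it and the gene stood below the filter. Il22ra2, a soluble decoy for IL-22, reached 1.52 FPKM in macrophage 8 and was listed at 0 in the other 7 libraries. Il20rb likewise appeared in macrophage 8 alone, at 0.492 FPKM. Il22ra1, the signalling IL-22 receptor chain 20.04 kb from Il28ra, reached 0.0758 FPKM at most, and Il20ra 0.0222 FPKM.

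Of the IL-6 family receptors, Il6ra and Il11ra1 entered the test. Il6ra, the IL-6-binding chain that signals through Il6st (gp130), measured 2.59, 3.23, 6.27 and 1.83 FPKM in the microglia and 4.61, 10.5, 1.49 and 4.47 FPKM in the macrophages. Macrophage 6 was the highest and macrophage 7 the lowest of the 8 (difference 0.37 ± 0.70, limma adjusted p = 0.846, and -0.13 under quantile normalization). Il6ra was above Il6st in 6 of 8 libraries, by ratios of 0.815 to 3.43 in microglia and 0.554 to 3.98 in macrophages.

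Il11ra1, the IL-11 receptor, measured 2.88, 16.4, 2.83 and 12.6 FPKM in the microglia and 7.95, 3.30, 1.79 and 4.93 FPKM in the macrophages. Microglia 2 and 4 were above every macrophage library and microglia 1 and 3 were below most of them, so the microglia lay on both sides of the macrophages (difference -0.62 ± 0.73, limma adjusted p = 0.742). Il11ra1 and Il11ra2 are near-identical copies that can share reads, and Il11ra1 overlaps Ccl27a, so this level is uncertain. Ccl27a stood at 15.0 FPKM in microglia 2, where Il11ra1 was highest, and at no more than 0.299 FPKM elsewhere. Il11ra2 reached 0.0262 FPKM, also in microglia 2.

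Chains of the IL-12 family each reached 1 FPKM in no more than 2 libraries. Il27ra, for IL-27, reached 1.76 FPKM in microglia 1 and 1.60 FPKM in macrophage 6. Il12rb2, the IL-12 chain, reached 2.04 FPKM in macrophage 8, and its neighbour Il23r, the IL-23 chain 46.8 kb away, reached 2.72 FPKM in microglia 2. Il12rb1, which both IL-12 and IL-23 need, was listed at 0 in 7 libraries and at 0.0146 FPKM in macrophage 5. Il31ra, for the itch cytokine IL-31, reached 1.06 FPKM in macrophage 8. None of these chains entered the test.

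Il3ra, the IL-3 receptor alpha chain, measured 1.60, 3.72, 0 and 2.77 FPKM in the microglia and 1.60, 6.25, 6.91 and 1.01 FPKM in the macrophages. It was listed at 0 in microglia 3, and the groups overlapped (difference 0.67 ± 0.69, limma adjusted p = 0.699). Of its partner chains, Csf2rb was more abundant than Il3ra in all 8 libraries. The related chain Csf2rb2 was below Il3ra in microglia 2 (0.113 FPKM) and macrophage 7 (4.43 FPKM) and above it in the others. Il5ra, for the eosinophil growth factor IL-5, stayed between 0.0613 and 0.194 FPKM.

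Most of the IL-1 family receptors lie in a single gene cluster, along which their levels were read. Il1r2, Il1r1, Il1rl2, Il1rl1, Il18r1 and Il18rap lie side by side over 464.53 kb of chromosome 1, at chr1:40141613-40606142 in mm9, all on the plus strand, with 0.137 kb between Il1rl1 and Il18r1. Il1r2, the decoy receptor that takes up IL-1 without signalling, was listed at 0 in all 4 microglia libraries and measured 15.3, 8.30, 0.0366 and 18.7 FPKM in the macrophages. Macrophages 5, 6 and 8 held an estimated 446, 214 and 494 fragments of Il1r2, and macrophage 7 held 1. Il1r2 therefore reached 1 FPKM in 3 libraries and stood below the filter. With no filter, limma gave a difference of 2.90 ± 0.92 on the log2(FPKM + 1) scale, a size that depends on the pseudocount (unadjusted p = 0.0128, adjusted p = 0.435, over 20454 genes, of which 0.244% were called). The gene overlaps LOC100047133, which was listed at 2.66, 0, 0 and 0.3498 FPKM in the microglia and 1.84, 0, 0 and 1.12 FPKM in the macrophages. The sources used here do not say whether fragments were counted by strand.

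Il1r2 is known from neutrophils and from some macrophages and dendritic cells, and markers of these cells were read beside it. The 10 neutrophil genes summed to 42.8, 242, 137 and 77.7 FPKM in macrophages 5 to 8, so macrophage 7, with nearly no Il1r2, held the second-highest sum. Most of it came from S100a8, S100a9 and Retnlg, at 67.4, 50.2 and 18.7 FPKM in macrophage 7. Of the others, Ngp, Camp and Elane were listed at 0 in every macrophage library. Cxcr2 stood at 0.0831, 0.113, 0.119 and 1.44 FPKM and Mmp8 at 0.987, 6.30, 1.02 and 2.68 FPKM in macrophages 5 to 8. The 9 dendritic cell genes summed to 42.3, 80.7, 6.08 and 160 FPKM in the same order, lowest in macrophage 7 and highest in macrophage 8, as Il1r2 was. Of these 9 genes, 6 were lowest in macrophage 7 and 6 highest in macrophage 8 among the macrophages. These were not the same 6 genes. Xcr1, at 0.389, 3.04, 1.52 and 5.08 FPKM, was highest in macrophage 8 but lowest in macrophage 5. Ccl22, at 3.76, 23.9, 0.0779 and 17.6 FPKM, was lowest in macrophage 7 but highest in macrophage 6. Clec9a, at 0.825, 0, 0.0416 and 0.471 FPKM, was neither. The part of these cells in the Il1r2 level was not tested.

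Il1r1, the receptor through which IL-1 signals, begins 140 kb from the start of Il1r2 and showed no such pattern. Il1r1 was listed at 0 in microglia 1 and 2, at 0.349 and 2.45 FPKM in microglia 3 and 4, and at 0.258, 0.0593, 0.138 and 0.370 FPKM in the macrophages. In macrophages 5, 6 and 8 the decoy Il1r2 was therefore the more abundant IL-1 receptor transcript, and in microglia 3 and 4 it was Il1r1. Il1rl2, the IL-36 receptor, measured 1.24, 0, 0 and 0.551 FPKM in the microglia and 1.03, 3.004, 0.359 and 5.98 FPKM in the macrophages. Microglia 1 exceeded macrophages 5 and 7. Its difference of 1.12 ± 0.54 had an unadjusted limma p of 0.0497 and an adjusted p of 0.332. Il1rl1, the IL-33 receptor ST2, reached 1.42 FPKM in microglia 3 and 0.219 FPKM at most in macrophages.

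Il18r1, the IL-18-binding chain, measured 0.0144, 0.0520, 6.53 and 0.423 FPKM in the microglia and 0.903, 0.0191, 0.0737 and 1.56 FPKM in the macrophages. Microglia 3 alone carried a level above 2 FPKM. Il18rap, the accessory chain that IL-18 needs for signalling, was listed at 0 in the microglia and measured 0.0513, 1.30, 0.0183 and 1.44 FPKM in the macrophages. The 2 IL-18 receptor chains were at 1 FPKM or more together in macrophage 8 alone.

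**Figure D3:**
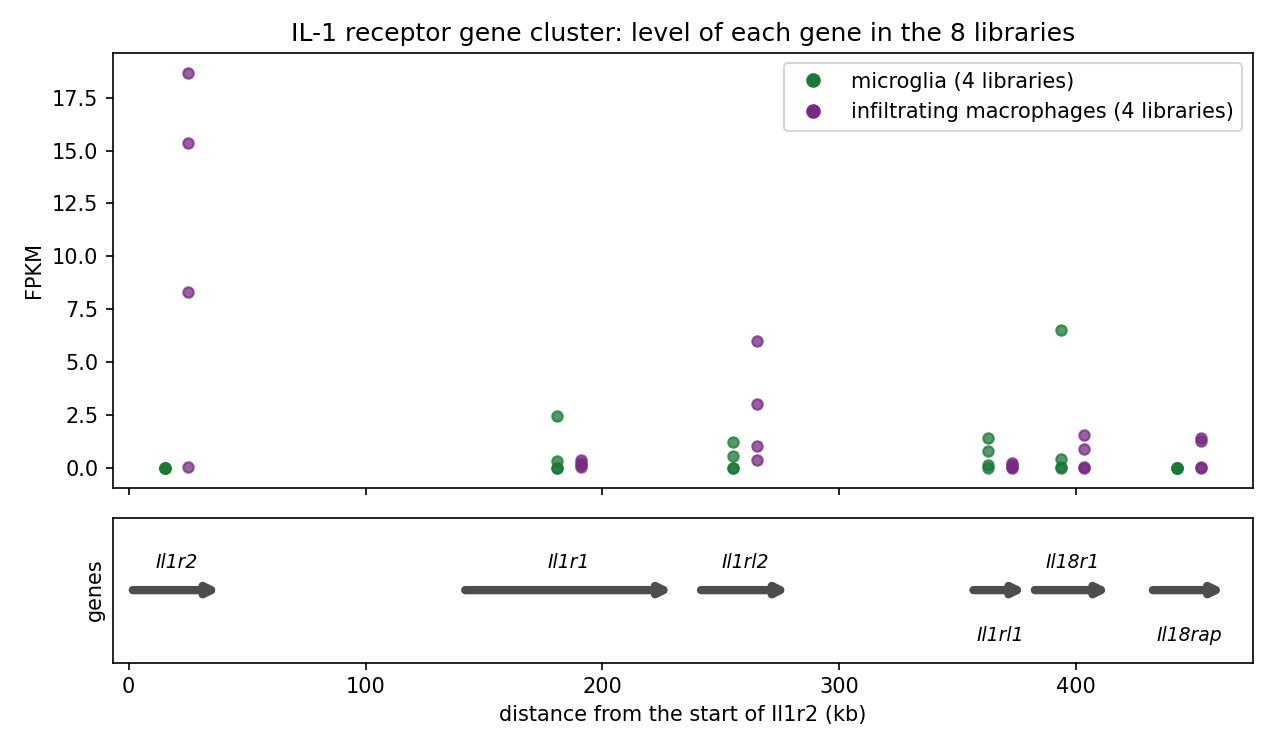
FPKM (vertical axis) of the 6 receptor genes of the IL-1 receptor cluster, placed by distance in kb from the start of Il1r2 (horizontal axis), with a point for each of 4 microglia libraries (green, shifted left) and 4 infiltrating macrophage libraries (purple, shifted right), and arrows for the genes and their direction below. Il1r2 has 3 macrophage points between 8.30 and 18.7 FPKM and all microglia points at 0, while no point of Il1r1, 140 kb away, exceeds 2.45 FPKM.

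Il1rap, the accessory protein shared by the IL-1, IL-33 and IL-36 receptors, lies on chromosome 16 and measured 3.13, 0.0882, 0.0133 and 1.03 FPKM in the microglia and 1.801, 6.71, 0.105 and 2.22 FPKM in the macrophages. Microglia 2 and 3 and macrophage 7 held nearly none, and macrophage 6 the most (difference 0.76 ± 0.61, limma adjusted p = 0.594, and -0.085 under quantile normalization). Of its neuronal relatives, Il1rapl2 reached 1.73 FPKM in microglia 3 and Il1rapl1 0.153 FPKM in macrophage 8. The 14 retinal neuron and glia genes beside them summed to 87.7 to 207 FPKM in microglia and 16.7 to 70.8 FPKM in macrophages, and their part in these 2 levels was not tested.

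Il17ra, the chain shared by the IL-17 receptors, measured 6.13, 1.01, 6.61 and 6.76 FPKM in the microglia and 7.87, 9.49, 3.40 and 16.5 FPKM in the macrophages. Microglia 2 stood apart below the other microglia and macrophage 8 was the highest (difference 0.77 ± 0.71, limma adjusted p = 0.659). Il17rc, which pairs with Il17ra for IL-17A and IL-17F, was listed at 0 in the 4 microglia libraries and in macrophage 5, and measured 4.18, 0.707 and 0.416 FPKM in macrophages 6, 7 and 8. Il17re, the IL-17C chain 0.703 kb from Il17rc, reached its highest level of 2.76 FPKM in microglia 3. Il17rb, for IL-25, reached 0.247 FPKM, and Il17rd, known as an inhibitor of growth factor signalling, reached 0.0940 FPKM.

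Counting all 41 genes, tested or not, the groups did not overlap for 4, each higher in macrophages (Il2ra, Il1r2, Il28ra and Il18rap), and for 0 lower in macrophages. The share was taken over every symbol above 0 in at least 1 library, which leaves out Il2rb and Il9r. Of these symbols, 3.99% were without overlap in the higher direction and 1.34% in the lower. Macrophage 7 was the lowest macrophage library for Il1r2, Il28ra and Il18rap, at 0.0366, 0.0696 and 0.0183 FPKM. For these genes the lack of overlap rests on values near 0 in that library. Among the macrophage libraries, macrophage 7 also held the lowest sums of dendritic cell genes (6.08 FPKM) and of monocyte-derived macrophage genes (288 FPKM). Its summed FPKM over all genes was the lowest too (207077). The sums of neutrophil genes (137 FPKM) and resident microglia genes (1350 FPKM) were not lowest there. The part of any of these in the receptor levels was not tested. Of the 26 genes that were not tested, 14 reached 1 FPKM in some library and 12 never did.

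Single libraries set much of the spread in this family. Macrophage 6 had the highest level of the 8 libraries for 7 of the 15 tested genes and macrophage 8 for 5. Macrophage 6 also had the highest summed FPKM over all genes (512049), and the main test did not rescale the libraries. Macrophage 7 was the lowest macrophage library for 11 of the 15, and microglia 2 was the lowest of all 8 for 8 of the 15. Microglia 2 was in turn the highest library for 2 genes, Il15ra and Il11ra1. Over all genes, microglia 2 had 5992 at 1 FPKM or more, against 8165 to 10282 in the other libraries. In the order of mean level over the 8 libraries, Il10rb was above Il2rg, the next, in 7 libraries, and Il2rg above Il10ra in 7. The order of Il10ra and Il4ra, with means of 29.3 and 28.9 FPKM, held in 5 of 8 libraries and was no clear order. Il15ra, although next above Il17ra by its mean, was above it in 1 library only, microglia 2.

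**Figure D4:**
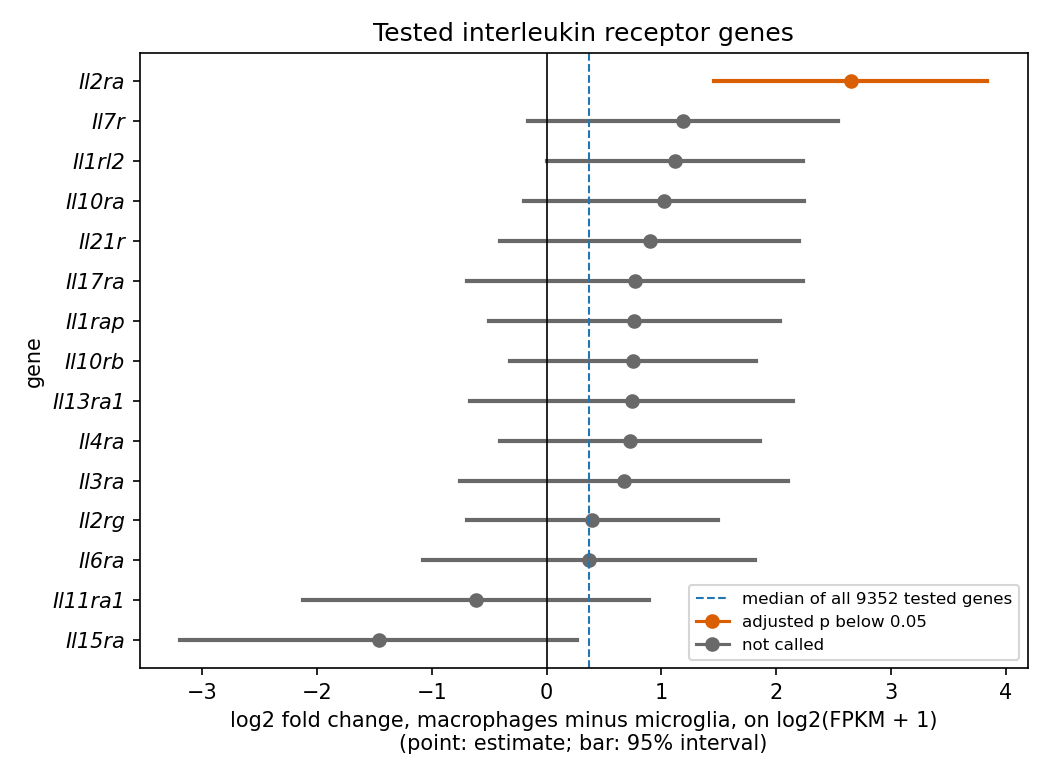
Difference between infiltrating macrophages and microglia on the log2(FPKM + 1) scale (horizontal axis; point, limma estimate; bar, 95% interval; n = 4 against 4 libraries) for the 15 tested interleukin receptor genes, with the median of all 9352 tested genes (0.37) as a dashed line. The interval of Il2ra, in orange, starts at 1.46, and 13 points lie right of 0.

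Genes that act with these receptors were read from 4 lists of ligands, partner chains and signalling proteins. Of 39 ligand genes in the table, 8 were tested, and 0 were called (2 at an unadjusted limma p below 0.05), with a median difference of 0.56. Beside these and the lists that follow, the shares over all tested genes were 2.34% called, 1.65% higher and 0.695% lower, and 15.0% at an unadjusted limma p below 0.05. Il1b, which Il1r2 takes up and the most abundant of the tested ligands, measured 12.5, 44.5, 0 and 4.49 FPKM in the microglia and 31.4, 57.0, 12.6 and 128 FPKM in the macrophages. Its difference of 2.48 ± 0.87 had an limma adjusted p of 0.163, and without microglia 2 it was called (3.34, adjusted p = 0.0131). Of 15 partner and related chains outside the Il names, 12 were tested and 0 were called (4 at an unadjusted limma p below 0.05, against 15.0% of all tested genes), with a median of 0.57. Csf2ra, a receptor chain for the growth factor GM-CSF, was the most abundant of these at 74.2 ± 36.7 (SD, n = 4) FPKM in microglia and 92.0 ± 53.0 (SD, n = 4) FPKM in macrophages, with a difference of 0.37 ± 0.57 (limma adjusted p = 0.809) that was -0.17 without microglia 2.

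Among 19 JAK, STAT and SOCS genes, 18 were tested, 1 was called higher (Jak2) and 0 lower, with a median difference of 0.90. At an unadjusted limma p below 0.05 stood 4 of the 18, where 15.0% of all tested genes did and 2.34% were called. Jak2, a kinase used by the IL-3, IL-5 and IL-12 receptors, measured 1.35, 0, 0.280 and 2.73 FPKM in the microglia and 7.09, 19.1, 5.35 and 28.6 FPKM in the macrophages. The groups did not overlap (difference 2.85 ± 0.73, limma adjusted p = 0.0354). The call was lost without any one of microglia 1, microglia 3 and macrophages 5, 6 and 8 (limma adjusted p of 0.0622 to 0.177), and, among other settings, with the Y-linked term. Socs3, an inhibitor that IL-6 and IL-10 signalling induces, was the most abundant of the list at 19.6 ± 9.41 (SD, n = 4) FPKM in microglia and 53.3 ± 19.7 (SD, n = 4) FPKM in macrophages, with a difference of 1.45 ± 0.56 (limma adjusted p = 0.220).

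Among 18 genes of the IL-1 and IL-17 receptor signal chain, 15 were tested, 1 was called higher (Myd88) and 0 lower, and the median difference was 0.83. An unadjusted limma p below 0.05 was found for 6 of the 15, where the share over all tested genes was 15.0%, with 2.34% called. Myd88, the adaptor that links IL-1 family and Toll-like receptors to their kinases, measured 14.3, 2.27, 3.18 and 14.8 FPKM in the microglia and 39.2, 94.5, 19.2 and 46.9 FPKM in the macrophages. The groups did not overlap (difference 2.53 ± 0.67, limma adjusted p = 0.0413). That call was lost without any one of microglia 2, microglia 3 and macrophages 5, 6 and 8 (limma adjusted p of 0.0759 to 0.139), and, among other settings, with the Y-linked term. Nfkbia, the inhibitor of NF-kB, was the most abundant of the list at 65.3 ± 44.2 (SD, n = 4) FPKM in microglia and 67.5 ± 40.9 (SD, n = 4) FPKM in macrophages, with a difference of 0.031 ± 0.59 (limma adjusted p = 0.988) that was below 0 without microglia 1, microglia 3, macrophage 6 or macrophage 8.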

How the data were processed

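Messenger RNA from microglia and infiltrating macrophages of the retina was sequenced in 8 libraries. Cufflinks 2.1.1, bcl2fastq 1.8.4 and the build mm9 are named in the submitters' processing notes, and the deposited values are FPKM per gene, computed by the authors; the aligner is not given in the sources used here. The 23021 rows of each table held 22558 symbols, of which 463 rows repeat a symbol and were summed, and 9 symbols were left out for a failed estimate. Depth was estimated from the lowest non-zero values with a fragment length of 150 bases assumed, and is approximate. Tests used limma 3.58.1 (R 4.3.3, lmFit and eBayes with trend) on log2(FPKM + 1), a pseudocount of 1, over genes that reached 1 FPKM in 4 or more libraries, two-sided, with no covariate, and were checked on simulated data. Every receptor gene that was tested or reached 5 FPKM in any library is given in all 8 libraries, and every other by its highest level. In each gene list, called genes and the most abundant tested gene are named. Single marker genes named beside the receptors, Il6st, Csf2rb2 and neighbouring genes were added after their values were seen. The receptor genes and all gene lists were chosen with earlier results of these data known. Alternatives changed the pseudocount, filter, scaling, variance model, libraries and a Y-linked term. Loci are those of the deposited tables. Promoters are from RefSeq, GRCm38.p6, and no coordinate was carried between builds.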

Additional observations from a re-analysis of the deposited data

Results flagged for a closer look

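Il17ra, the shared IL-17 receptor chain, was 1.01 FPKM in microglia 2, and the other 3 microglia libraries lay at 6.13, 6.61 and 6.76 FPKM. On the log2(FPKM + 1) scale, the gap between microglia 2 and the nearest of the others was 0.937 of the whole range of the group. That is above the 95% critical value of the Dixon test for 4 libraries. It was 1 of 34 groups read this way, and chance alone sets apart about 1 group in 20. Microglia 2 also held the lowest level of all 8 libraries for 8 of the 15 tested receptor genes. It was low beyond the receptors, with 5992 genes at 1 FPKM or more against 8165 to 10282 in the other libraries. The part of this in the Il17ra level was not tested.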

How the results depend on the processing

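The 219 genes called became 136 with a pseudocount of 0.1, 50 with no filter on low values, 132 with a filter of 5 FPKM, 335 with equal FPKM sums and 25 with a term for Y-linked expression, and 119 to 258 when each library was left out in turn (119 without macrophages 8 and 122 without macrophages 5). The share called higher was 70.3%, against 59.9% under upper-quartile, 54.3% under median-of-ratios and 53.4% under quantile scaling, and 78 rose and 79 fell without macrophages 6. The count of receptor genes called, 1, was 0 with no filter on low values (3 at an unadjusted limma p below 0.05), with a filter of 5 FPKM (8 tested and 0 unadjusted; Il2ra was then not tested), under quantile normalization (3 unadjusted) and with the Y-linked term (1 unadjusted), and it was 1 when any single library was left out. Runs without a library kept the genes that passed the filter over the 8 libraries, so Il2ra stayed tested without a macrophage library. The count of receptor genes with a difference above 0, 13 of 15, was 11 under quantile normalization and 12 with the Y-linked term. The sign turned for Il1rap (-0.085) and Il6ra (-0.13) under quantile normalization, for Il2rg with the Y-linked term (-0.059), and for Csf2ra without microglia 2 (-0.17; -0.17 to 0.66 when each library was left out), without microglia 2 and 3 (-0.20) and with the Y-linked term (-0.11). For Nfkbia it turned under upper-quartile scaling (-0.077), median-of-ratios scaling (-0.29) and the Y-linked term (-0.66), and without microglia 1 (-0.31), microglia 3 (-0.08), macrophages 6 (-0.31) or macrophages 8 (-0.13; -0.31 to 0.50 when each library was left out). The cause was not tested. No paired analysis was possible because the groups share no replicate number. Adjusted p for Il2ra ran from 0.0059 to 0.392 over these settings.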
